A study of Homo sapiens with 6 samples.

Results

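The ZNF genes encode most of the human proteins with C2H2 zinc fingers, and their transcripts were counted by RNA sequencing in a human bladder cancer line, UM-UC-3. The genes were chosen by name and by raw count. A gene was kept where its name was ZNF followed by a number and at most 1 letter, other than ZNF473, and where its raw counts summed over all 6 libraries reached 120. This held for 216 of 499 such names (43.3%), among 23382 gene names in the table. Of the other names, 15 had no count in any library and 268 had between 1 and 119 counts. At the edge of the floor, ZNF546 (120 counts), ZNF74 (122) and ZNF321P (122) were kept, and ZNF319 (119), ZNF362 (118) and ZNF704 (118) were not.

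The study compared 3 libraries labelled as receiving an siRNA against CPSF3 with 3 libraries labelled negative control. CPSF3 is the endonuclease that cuts pre-mRNA downstream of the polyadenylation signal. Both groups are the same parental line, with no allele, further agent or time after transfection given in the labels. The labels give no siRNA sequence and do not state that the 3 libraries of a group are separate cultures. The p-values therefore rest on a spread between libraries that may be technical. The libraries held 4267255, 4378899 and 4224413 counts under si-CPSF3, against 4145385, 4362312 and 4163559 in the control, with each gene counted on 1 row.

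C2H2 zinc finger proteins bind DNA, and some bind RNA or other proteins, through short loops in which a pair of cysteines and a pair of histidines hold a zinc ion. Many carry a KRAB domain at the amino terminus, which recruits TRIM28 and through it the histone methyltransferase SETDB1, HP1 proteins and a deacetylase complex that silence transposable elements and genes. Large clusters of KRAB genes lie on chromosome 19. Others have SCAN domains, act as activators, or have roles away from DNA, such as ribosome assembly and the mitotic spindle.

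The label of the targeted gene was checked first. CPSF3 had 15.04, 8.88 and 14.97 CPM (counts scaled to a common library size with edgeR's TMM factors) in the libraries labelled si-CPSF3, against 4.52, 10.4 and 9.37 CPM in the control libraries. The groups overlapped, and the mean was higher under the si-CPSF3 label. The log2 fold change was 0.67 (SE 0.32, 95% interval -0.003 to 1.35, adjusted p = 0.329 by edgeR's quasi-likelihood test over 11069 genes). The exact permutation test on the CPM values, two-sided, gave p = 0.3, where 3 libraries against 3 can give no p below 0.1. The transcript was thus no lower under the si-CPSF3 label, and every direction below is a direction between labels. Of epithelial markers, KRT8 and KRT18 were present, whereas EPCAM, CDH1 and KRT19 were at 0 in every library. Of 8 luminal urothelial markers 6 were in the table, with UPK2 at 0 and PPARG, UPK1B and GATA3 leading, and they summed to 35 to 48 counts under si-CPSF3 and 48 to 70 in the control. The basal marker in the table, CD44, had 286 to 407 counts under si-CPSF3 and 446 to 734 in the control, and was called lower (log2 fold change -0.70). The 5 mesenchymal markers, led by VIM, summed to 985 to 1201 counts under si-CPSF3 and 1090 to 1476 in the control, and 1 of them, SPARC, was called lower (-2.22). Of 6 leukocyte markers 3 were in the table, led by CD68. They summed to 122 to 137 counts under si-CPSF3 and 160 to 192 in the control. Of 4 erythroid markers only 1, HBA1, was in the table, and of 4 endothelial markers only 1, PECAM1. Each reached at most 2 counts in a library. The part of all these markers in the ZNF results was not tested.

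A few genes on which the results turn are shown by the coding sequence of their first C2H2 finger, 5′ to 3′ on the sense strand, from GENCODE 29 on GRCh38. Capitals mark the codons of the zinc-holding cysteines and histidines. ZNF592 was the member past the threshold, ZNF322 and ZNF789 were the nearest to it in each direction, and ZNF593 had the highest level per length.
ZNF592, chr15:84790708-84790770, plus strand, exon 5 of 11: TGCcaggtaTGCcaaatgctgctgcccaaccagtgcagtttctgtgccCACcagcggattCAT
ZNF322, chr6:26638275-26638337, minus strand, exon 5 of 5: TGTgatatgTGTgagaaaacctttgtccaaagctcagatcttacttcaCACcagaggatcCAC
ZNF789, chr7:99486817-99486879, plus strand, exon 5 of 5: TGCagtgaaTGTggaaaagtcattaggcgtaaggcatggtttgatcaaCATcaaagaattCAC
ZNF593, chr1:26170170-26170472, plus strand, across the intron between 2 exons: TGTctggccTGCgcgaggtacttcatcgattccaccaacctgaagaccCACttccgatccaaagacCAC
In the first 3 of these the finger spans 21 codons. In ZNF593 it spans 23, with the longer spacing between histidines that is known from fingers of proteins that bind RNA.

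Because the study targets the factor that cuts at polyadenylation signals, the annotated 3′ ends of the same 4 genes are shown with the signal hexamer in capitals.
ZNF592, chr15:84806397-84806426: cattttagagaaATTAAAaagcacacatat
ZNF322, chr6:26634393-26634421: ccttaattattaAATAAAcatttgttctg
ZNF789, chr7:99487563-99487592: tccatgaaaagcAATAAAtgtaacaaaggg
ZNF593, chr1:26170838-26170867: tgccctgccccaAATAAAggaactggacaa
ZNF592 ends with the variant ATTAAA and the other 3 with the canonical AATAAA. The counts are sums per gene and hold no information on which end a transcript used.

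As a group, the ZNF genes had nearly the same level under both labels. Their CPM summed to 3749, 3987 and 3588 in the libraries labelled si-CPSF3, against 3764, 3801 and 3731 in the control libraries. The means were 3774 ± 201 under si-CPSF3 and 3765 ± 34.6 in the control (SD, n = 3 each), and the 3 control sums lay within the range of the si-CPSF3 sums. As shares of all counts, without TMM scaling, the genes took 0.364% ± 0.033 under si-CPSF3 and 0.388% ± 0.039 in the control (SD, n = 3 each), and these ranges also overlapped.

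Only 1 of the 216 genes passed an adjusted p of 0.05, ZNF592, which was higher in the libraries labelled si-CPSF3, and none passed in the other direction. All 216 passed the expression filter and were tested. The share called was 0.463%, beside 2.23% of all 11069 genes tested (0.723% higher and 1.51% lower) and 2.72% of the 8427 genes that reached the same floor of 120 counts (0.878% higher and 1.84% lower). At an unadjusted p under 0.05 there were 18 ZNF genes (8.33%), 12 higher and 6 lower. The share was 15.4% of all genes tested and 17.1% of those at the same floor. DESeq2 and limma-voom each called ZNF592 higher and ZNF789 lower.

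The CPM of the 3 libraries labelled si-CPSF3 and of the 3 control libraries did not overlap for 34 ZNF genes (15.7%), 23 higher and 11 lower, beside 21.2% of all genes tested (9.82% higher and 11.4% lower). The median log2 fold change of the ZNF genes was 0.02 (quartiles -0.19 and 0.23), beside -0.01 for the genes at the same floor (quartiles -0.25 and 0.23). It was above 0 in 115 genes (53.2%), beside 49.1%. Scaling to library totals in place of TMM turned the ZNF median to -0.09 and the median of all genes to -0.10, so the difference between them stayed near 0. With that scaling, 18.9% of all called genes were higher, against 32.4% with TMM.

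At a limit of 0.5 on the log2 scale the 2 tails of the distribution differed, though this was not tested. Log2 fold changes below -0.5 were found in 8 ZNF genes (3.70%), beside 10.4% of all genes at the same floor. Changes above 0.5 were found in 21 ZNF genes (9.72%), beside 8.77%. A change of 1 or more either way was found in 4 ZNF genes (1.85%), beside 3.12% of all genes at the same floor. Of these 4, ZNF592 and ZNF621 were higher and ZNF789 and ZNF546 lower, so the tails did not differ at that limit. The 95% interval lay within a 2-fold change either way for 159 ZNF genes (73.6%), beside 73.4% of all genes at the same floor, and within 1.5-fold for 49. The median SE was 0.27 on the log2 scale, beside 0.25 for all genes at the same floor. The median CPM was 10.1 for the ZNF genes and 14.1 for all genes at that floor, so the shared floor did not match their levels.

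**Figure D1:**
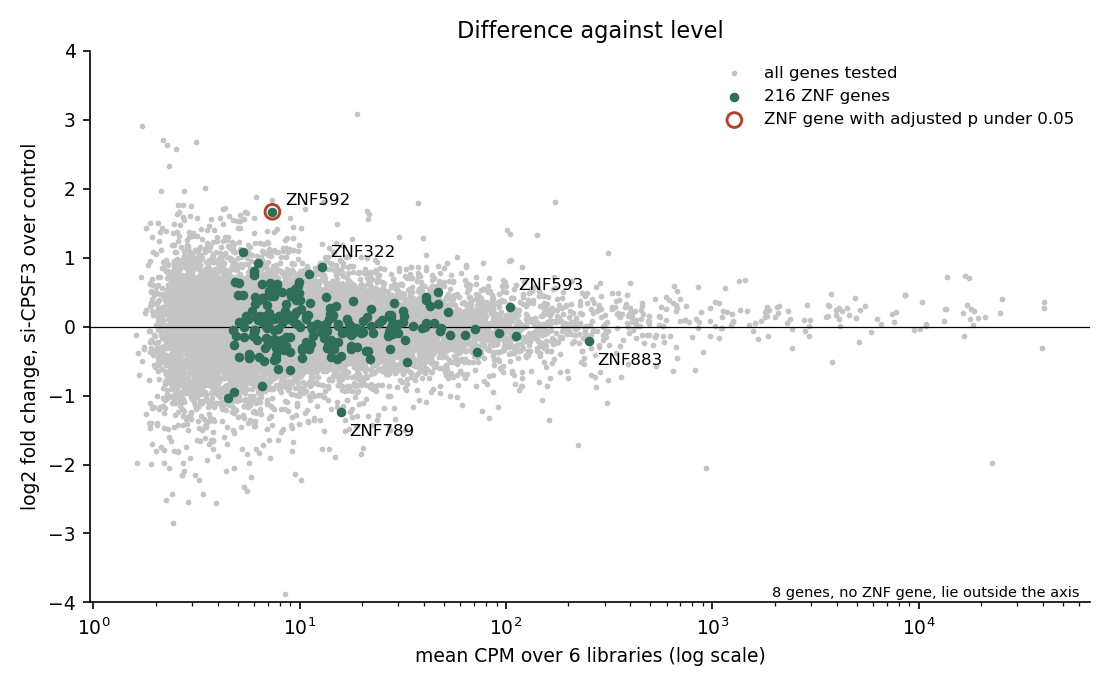
Log2 fold change between si-CPSF3 and control libraries (vertical axis) against mean CPM over the 6 libraries (log scale), for all 11069 genes tested (grey) and the 216 ZNF genes (green). ZNF592 is the ZNF gene with an adjusted p under 0.05 (circled), and the most abundant ZNF gene, ZNF883, has a log2 fold change of -0.21.

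**Figure D2:**
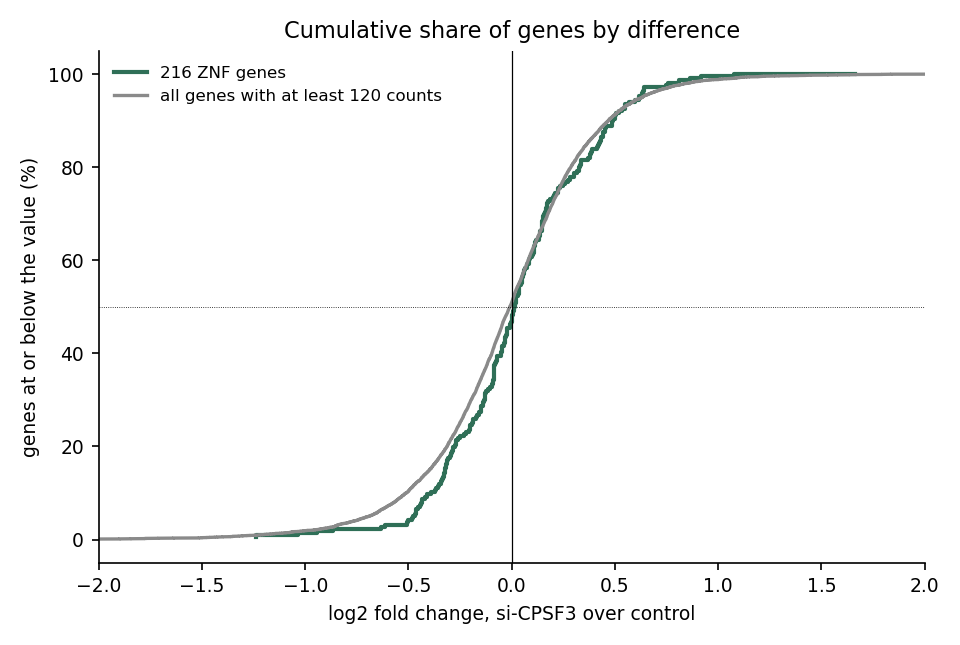
Share of genes (percent) at or below each log2 fold change between si-CPSF3 and control libraries, for the 216 ZNF genes (green) and the 8427 genes with at least 120 counts (grey). The curves cross 50% near 0, and the ZNF curve is the lower one below -0.5, where 3.70% of ZNF genes and 10.4% of the grey set lie.

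ZNF592 encodes a chromatin protein that forms a complex with ZMYND8, ZNF687 and ZNF532. It had 11.3, 13.3 and 9.07 CPM in the libraries labelled si-CPSF3, against 3.61, 3.54 and 3.38 CPM in the control libraries. Every si-CPSF3 value was higher than every control value, and the control values lay close together. The log2 fold change was 1.66 (SE 0.30, 95% interval 1.03 to 2.30, adjusted p = 0.00798 by edgeR's quasi-likelihood test). The raw counts behind it were 42, 57 and 40 under si-CPSF3 and 16, 17 and 13 in the control. The call held in 5 of 6 fits that each left out 1 library, and the adjusted p without si-CPSF3 replicate 2 was 0.0556. On the deposited FPKM values the log2 fold change was 0.65 with a pseudocount of 1 (adjusted p = 0.232 by limma) and 1.25 with a pseudocount of 0.1 (adjusted p = 0.298).

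Partners of ZNF592 were looked up after its value was seen. ZNF532 had 3.49, 9.34 and 4.54 CPM under si-CPSF3, against 4.07, 3.75 and 4.94 CPM in the control, with overlapping groups and a log2 fold change of 0.46 (adjusted p = 0.646 by edgeR). ZMYND8 differed by -0.30 (adjusted p = 0.661 by edgeR). ZNF687, below the floor with at most 13 counts in a library, differed by -0.36 with an SE of 0.66. None of the 3 passed the test.

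The other ZNF genes with higher values and no overlap did not pass the adjusted threshold. ZNF322 had 16.9, 18.7 and 14.1 CPM under si-CPSF3, against 8.36, 10.004 and 8.85 CPM in the control. The groups did not overlap, and the log2 fold change was 0.86 (SE 0.23, adjusted p = 0.0642 by edgeR). A second row of the table bears the name ZNF322 and holds 11 counts, all in control replicate 3, and with both rows summed the difference was 0.73 (adjusted p = 0.107 by edgeR). ZNF24, a SCAN domain protein, had 16.6, 13.1 and 12.2 CPM under si-CPSF3, against 9.04, 6.67 and 9.11 CPM in the control. These groups did not overlap either, and the difference was 0.76 (SE 0.25, adjusted p = 0.14 by edgeR).

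ZNF385A, a double-stranded RNA binding protein that also interacts with p53, had 8.06, 7.47 and 9.07 CPM under si-CPSF3, against 5.65, 4.17 and 3.12 CPM in the control. The difference was 0.92 (SE 0.32, adjusted p = 0.168 by edgeR), without overlap. ZNF644, a partner of the histone H3 lysine 9 methyltransferases EHMT1 and EHMT2, had 6.98, 7.47 and 8.39 CPM under si-CPSF3, against 5.42, 2.50 and 5.20 CPM in the control. Its groups did not overlap, and the difference was 0.81 (adjusted p = 0.27 by edgeR). ZNF641, ZNF74 and ZNF749 completed the 8 largest higher differences without overlap, at 0.75, 0.64 and 0.64, with adjusted p-values of 0.297, 0.467 and 0.235 by edgeR.

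ZNF789, a gene with the KRAB pattern and 8 fingers, had the most negative log2 fold change of the 216. It had 15.6, 6.07 and 6.80 CPM in the libraries labelled si-CPSF3, against 23.3, 16.5 and 26.8 CPM in the control libraries. The groups did not overlap, although si-CPSF3 replicate 1 lay just under the lowest control. The log2 fold change was -1.24 (SE 0.32, 95% interval -1.91 to -0.56), and the adjusted p of 0.0557 by edgeR missed the threshold. It passed in 2 of 6 fits with 1 library left out, and in DESeq2 with an adjusted p of 0.0240. The deposited FPKM values of ZNF789 were 15.01, 4.001 and 7.42 under si-CPSF3 and 32.6, 25.5 and 31.7 in the control, which also did not overlap.

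ZNF789 overlaps ZNF394 tail to tail on the opposite strand, and no source used here gives the strand setting of the counting, so the reads of both genes cannot be separated there. ZNF394 had 4.83, 9.34 and 7.71 CPM under si-CPSF3, against 9.72, 6.25 and 12.2 CPM in the control, with overlapping groups and a difference of -0.34 (adjusted p = 0.677 by edgeR). ZNF655, also on chromosome 7, had 30.9, 29.7 and 21.5 CPM under si-CPSF3, against 45.6, 35.8 and 34.9 CPM in the control. Its groups did not overlap, and its log2 fold change was -0.51 (SE 0.19, adjusted p = 0.203 by edgeR). ZNF3, further along the same chromosome, differed by -0.14 (adjusted p = 0.822 by edgeR). ZNF655 also has exons that overlap other genes.

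ZNF335, a component of histone H3 lysine 4 methyltransferase complexes, had 6.18, 5.84 and 6.58 CPM under si-CPSF3, against 10.6, 8.75 and 9.11 CPM in the control. Its groups were tight and separate, and the difference was -0.61 (SE 0.27, adjusted p = 0.285 by edgeR). ZNF154, whose promoter is known to be methylated in many carcinomas, had 14.0, 13.3 and 10.9 CPM under si-CPSF3, against 16.0, 19.4 and 17.2 CPM in the control, with a difference of -0.47 (adjusted p = 0.313 by edgeR). ZNF551, ZNF18 and ZNF84 had separate groups and differences of -0.46, -0.44 and -0.44, with adjusted p-values of 0.529, 0.528 and 0.576 by edgeR. ZNF43 differed by -0.50 on its main row and by 0.05 with a second row of that name added, so its direction rests on the choice of row.

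**Figure D3:**
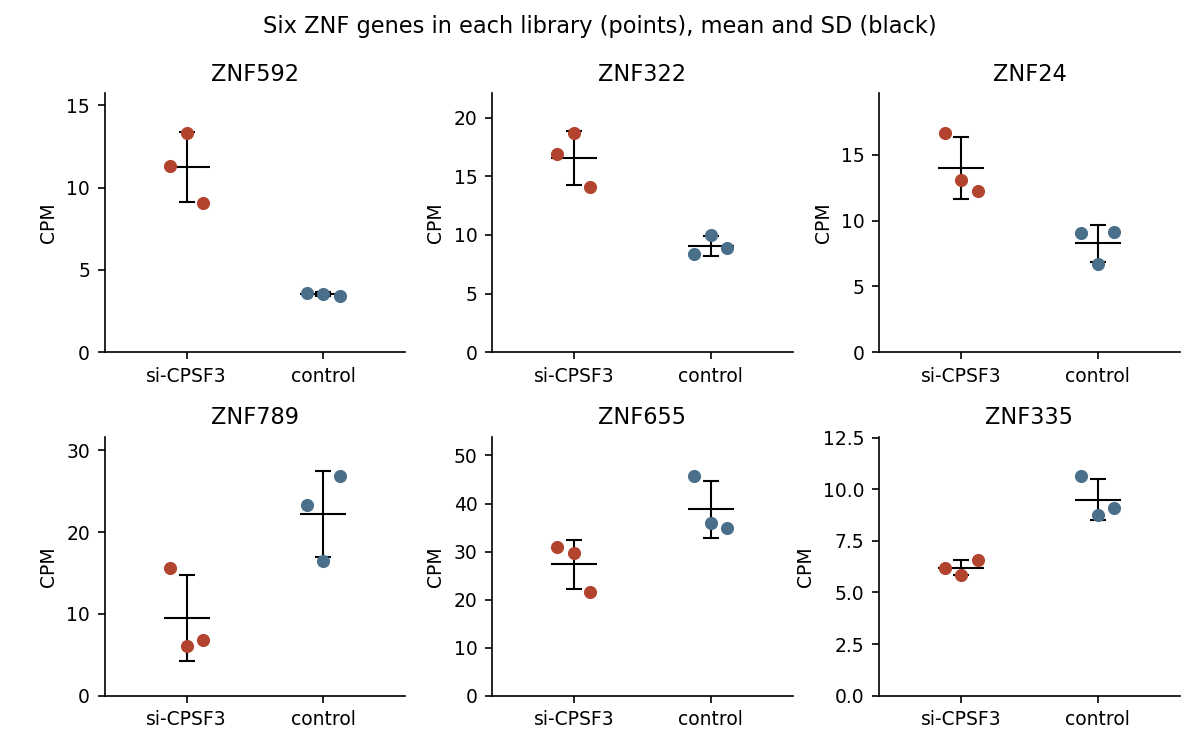
CPM in each library (points), with the mean and SD of 3 libraries (black), for 3 ZNF genes with higher and 3 with lower values in the libraries labelled si-CPSF3 (red) than in the control (blue). The groups are separate in all 6 panels, and ZNF592 is the gene of these whose adjusted p was under 0.05.

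Among the most abundant ZNF genes by CPM, none passed the test. ZNF883 led, with 204, 292 and 206 CPM under si-CPSF3, against 276, 279 and 257 CPM in the control. Its groups overlapped, with a log2 fold change of -0.21 (SE 0.16, adjusted p = 0.598 by edgeR). ZNF426, ZNF665 and ZNF787 differed by -0.13, -0.09 and -0.03, and all 3 overlapped. ZNF525 ranged over 42.4, 57.5 and 89.8 CPM under si-CPSF3 and 70.9, 77.7 and 97.6 CPM in the control, a wide spread within both groups, with a difference of -0.37 (adjusted p = 0.477 by edgeR).

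Levels of different genes can be compared per length in the deposited FPKM values. The ZNF genes had a median FPKM of 2.73, from 0.403 to 220. ZNF593, the human counterpart of the yeast ribosome export factor Bud20, had the highest, at 195, 327 and 212 FPKM under si-CPSF3 and 184, 217 and 185 FPKM in the control. The next, ZNF580, averaged 49.3 FPKM over the 6 libraries, so ZNF593 stood apart from the rest. Exons of both overlap other genes, ZNF593 on the opposite strand and ZNF580 on the same strand. The part of those genes in these levels was not tested. The groups of ZNF593 overlapped on this scale. On the CPM scale ZNF593 had 120.03, 115 and 108 under si-CPSF3, against 91.0, 105 and 85.6 in the control, without overlap and with a log2 fold change of 0.28 (SE 0.15, adjusted p = 0.381 by edgeR).

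Members with roles away from gene silencing were named for those roles after their values were seen, and none passed the test. ZNF207, a spindle assembly factor that binds BUB3, had 24.2, 34.3 and 28.3 CPM under si-CPSF3, against 29.6, 32.7 and 30.7 CPM in the control, a difference of -0.10 with overlapping groups. ZNF598, the ubiquitin ligase that marks collided ribosomes, differed by -0.33 (SE 0.21), and ZNF622, which acts in maturation of the large ribosomal subunit, by 0.38 (SE 0.27). ZNF326, a component of a complex linking RNA polymerase II elongation to splicing, differed by 0.50 (SE 0.34). Among chromatin and DNA binding members, ZNF91, which represses SVA retrotransposons, had 31.1, 32.7 and 27.2 CPM under si-CPSF3, against 33.9, 33.6 and 36.7 CPM in the control. Its groups were separate but close, with a difference of -0.19 (SE 0.16, adjusted p = 0.637 by edgeR). ZNF217, an oncogene amplified in several carcinomas, differed by -0.48 (SE 0.35), with overlapping groups.

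The smallest differences among members of at least 10 CPM were in ZNF227, ZNF566, ZNF608 and ZNF462, each within 0.01 of 0 on the log2 scale. The 95% interval was -0.71 to 0.71 for ZNF227 and -0.46 to 0.48 for ZNF462, so a difference of 0.48 on the log2 scale lies within both intervals. ZNF462, a nuclear protein with 33 finger patterns, the most of any member, had 20.1, 16.6 and 29.7 CPM under si-CPSF3, against 21.7, 20.6 and 23.9 CPM in the control.

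Some members varied more between libraries of 1 group than between groups. ZNF585A, singled out after its values were seen, had 8.32, 7.47 and 17.9 CPM under si-CPSF3, against 1.81, 14.6 and 14.1 CPM in the control. Control replicate 1 was far below the other control libraries. ZNF546 stood on 2 rows that moved against each other: the first held 10, 24 and 3 counts under si-CPSF3 and 45, 38 and 0 in the control, and the second held 22, 13 and 21 under si-CPSF3 and 0, 10 and 46 in the control. Its log2 fold change of -1.03 on the first row became -0.50 with both summed (adjusted p = 0.399 by edgeR). ZNF621, also singled out after its values were seen, had the second largest positive log2 fold change, 1.07, but overlapping groups, with 5.10, 5.61 and 11.1 CPM under si-CPSF3 and 2.49, 5.63 and 2.08 CPM in the control (adjusted p = 0.241 by edgeR).

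By structure, 212 of the 216 genes were protein-coding in RefSeq and 4 were transcribed pseudogenes, and 213 had a coding transcript in GENCODE 29. A script found the KRAB pattern in 107 of these, and a median of 10 finger patterns. It sought 1 pattern in 1 chosen transcript per gene, so genes without the pattern may still encode a KRAB domain. Among genes with the KRAB pattern the median log2 fold change was -0.004 and none was called by edgeR, and the 106 without it had a median of 0.06 and 1 called. DESeq2 and limma-voom each called 1 gene with the pattern, ZNF789. By edgeR, 5 genes with the pattern (4.67%) and 13 without it (12.3%) had an unadjusted p under 0.05. The 93 genes on chromosome 19 (43.1%) had a median of -0.02, with none called by edgeR, DESeq2 or limma-voom. The 123 on other chromosomes had 0.05, with 1 called by edgeR. At an unadjusted p under 0.05 by edgeR there were 5 on chromosome 19 (5.38%) and 13 on the others (10.6%). Over all genes at the same floor, edgeR called 2.72%, with 17.1% at an unadjusted p under 0.05. Counts of 0 or 1 called in groups of this size do not tell the groups apart. In 5 genes no finger pattern was found, and 3 of these were above 0 (median 0.04). With 1 to 5 fingers, 33 of 46 genes were above 0 (median 0.12). With 6 to 10 fingers, 26 of 69 were above 0 (median -0.08, ZNF592 among them), and with over 10 fingers, 52 of 93 (median 0.02). The quartiles of every group spanned 0, and the differences between groups were not tested.

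**Figure D4:**
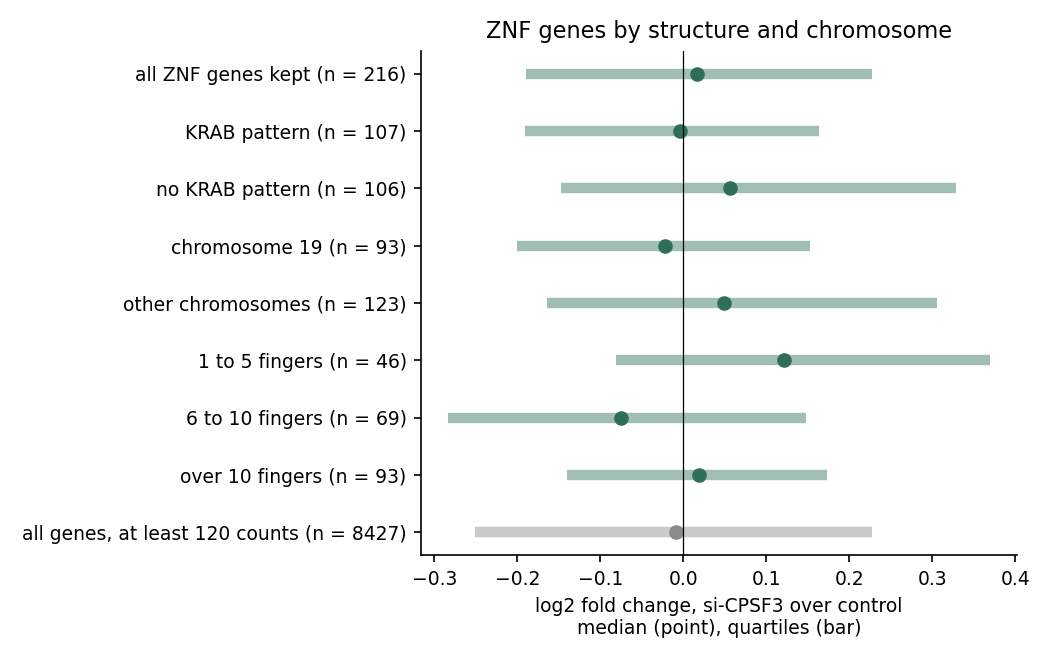
Median (points) and quartiles (bars) of the log2 fold change between si-CPSF3 and control libraries, for ZNF genes split by KRAB pattern, chromosome and number of fingers (green), and for all genes with at least 120 counts (grey). Every bar spans 0, and the medians run from -0.08 at 6 to 10 fingers to 0.12 at 1 to 5 fingers. The 5 genes with no finger pattern found are not drawn as a class.

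The annotated 3′ ends of ZNF genes differed from those of other coding genes at the same floor in length and signal. The median 3′ UTR was 1704 bases over 203 ZNF genes and 1181 bases over 6999 other genes. AATAAA stood in the last 50 bases, on the transcript strand, in 54.0% of ZNF genes and 63.1% of the other genes, and ATTAAA, without AATAAA, in 14.6% and 14.9%. These shares are over 213 ZNF genes and 7159 other genes, so they include transcripts annotated with a 3′ UTR under 50 bases. In those transcripts the last 50 bases run into coding sequence, and their part in the difference was not tested. Genes with a 3′ UTR at or over the ZNF median had a median difference of 0.005 on the log2 scale, and those under it 0.04. The 115 genes with AATAAA had a median of 0.02, the 31 with ATTAAA -0.05 (ZNF592 among them), and the 67 with neither 0.04. In these classes edgeR called ZNF592, and DESeq2 and limma-voom also called ZNF789, which has AATAAA and a 3′ UTR under the ZNF median. Of the other coding genes at the floor, edgeR called 3.03% with AATAAA, 2.91% with ATTAAA and 2.47% with neither.

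Exons of 107 members overlap those of another gene on either strand, 53 on the same strand and 71 on the opposite one. These 107 had a median log2 fold change of -0.02, with none called by edgeR, and ZNF789 called by DESeq2 and limma-voom. The 109 without overlap had a median of 0.04, with ZNF592 called. At an unadjusted p under 0.05 by edgeR there were 7 with overlap (6.54%) and 11 without (10.1%). Over all genes at the same floor, edgeR called 2.72%, with 17.1% at an unadjusted p under 0.05. Below the floor, 0 of 72 ZNF names tested were called by edgeR, DESeq2 or limma-voom. By edgeR, 5 (6.94%) had an unadjusted p under 0.05. Of all genes tested, edgeR called 2.23%, with 15.4% at an unadjusted p under 0.05. Most of those genes lie above the floor, and no share was taken over the genes below it, so the count of 0 sets nothing apart.

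Related families were set beside the 2.72% of genes called and 17.1% at an unadjusted p under 0.05 at the same floor. At that floor, 0 of 6 ZSCAN genes, 0 of 3 ZKSCAN genes, 0 of 19 ZBTB genes and 0 of 9 ZFP genes were called by edgeR, DESeq2 or limma-voom. By edgeR, the number at an unadjusted p under 0.05 was 1 of the ZSCAN, 0 of the ZKSCAN, 1 of the ZBTB and 1 of the ZFP genes. The ZFP names include ZFP36L1 and ZFP36L2, which bind mRNA through CCCH fingers and are not of the C2H2 class. ZFP36L1 (log2 fold change -0.43) was the ZFP gene at that unadjusted p, so no C2H2 gene among the ZFP names reached it. The median differences on the log2 scale were 0.15 for ZSCAN, -0.21 for ZKSCAN, 0.05 for ZBTB and 0.04 for ZFP genes.

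Of 41 listed genes of the machinery that KRAB proteins recruit, 35 were tested, and 1 passed, beside 2.23% of all genes. EHMT2, a histone H3 lysine 9 methyltransferase, had 7.25, 4.20 and 8.16 CPM in the libraries labelled si-CPSF3, against 17.4, 14.0 and 14.1 CPM in the control libraries. The groups were well apart, and EHMT2 fell by 1.21 on the log2 scale (SE 0.28, adjusted p = 0.0319 by edgeR). The call held in 1 of 6 fits with 1 library left out.

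TRIM28, the co-repressor that binds KRAB domains, had 72.0, 70.3 and 80.1 CPM under si-CPSF3, against 82.7, 82.1 and 77.5 CPM in the control, with overlapping groups and a difference of -0.12 (SE 0.14, adjusted p = 0.745 by edgeR). SETDB1, CBX1, CBX3, CBX5 and TASOR were named outside the rule, after their values were seen. SETDB1 differed by -0.12 (adjusted p = 0.884 by edgeR). The HP1 gene CBX1 had 78.4, 79.2 and 80.7 CPM under si-CPSF3, against 50.4, 41.7 and 63.5 CPM in the control. Its groups were separate, with a difference of 0.62 (SE 0.17), and its adjusted p was 0.0684 by edgeR. Of the other HP1 genes, CBX3 differed by -0.19 with overlapping groups and CBX5 by 0.24 with separate groups. Their adjusted p-values were 0.758 and 0.634 by edgeR. MPHOSPH8, a subunit of the HUSH silencing complex, differed by 0.20 (SE 0.20), with overlapping groups. TASOR, of the same complex, differed by -0.90 (SE 0.29, adjusted p = 0.130 by edgeR), with separate groups. Over the list, 18 of 35 genes were above 0, and the median difference was 0.02 on the log2 scale.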

How the data were processed

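The authors deposited raw gene counts and, in a second table, FPKM values, with 1 column per library; whole-number counts went into the tests, and the deposited FPKM values, scaled to length and depth by the authors, served for levels per length and as an alternative. A SMARTer mRNA kit was used for the libraries, per the labels' protocols, and hg38 as the build, per the submitters' processing notes. The sources used here give no aligner, counter, strand setting or annotation. Where a name stood on several rows, the row with the highest mean was used; 8 members had several rows, distinct in 7.

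Tests used edgeR 4.0.16 in R 4.3.3 with its quasi-likelihood method (TMM, default expression filter by group, Benjamini-Hochberg over 11069 genes, two-sided at 0.05, group as the only term). CPM are counts over TMM-adjusted library sizes, ± is the SD of 3 libraries, and an SE is the size of the log2 fold change over the root of F. The chi-square per degree of freedom between replicates was 5.91 to 14.2, so no library repeated another. Alternatives were other scalings, filters and row choices, DESeq2 1.42.0, voom and trend fits of limma 3.58.1, a replicate block, and each library left out. The test was also run on simulated data, and the share of changes it recovered is not given here.

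Fingers and the KRAB pattern were sought by script in translated coding sequences of GENCODE 29, as protein records were not used here. Positions and gene types are from RefSeq on GRCh38.p14, which matched all 216 members. Members, lists and the naming rule were chosen with earlier results of these data known. Named were members past the threshold, the 8 higher and 8 lower with the largest change and no overlap, the 6 most abundant, 3 on each side of the floor, the 4 of at least 10 CPM with the smallest change, and in the co-repressor list those past the threshold and the 3 most abundant. A gene that this rule names is not reported here. Genes named outside the rule were chosen after their values were seen.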

Additional observations from a re-analysis of the deposited data

How the results depend on the processing

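ZNF genes called higher numbered 1 in the main test, 0 with either FPKM fit or a floor of 240 counts, and 2 without the expression filter (ZNF322 added); with 1 library left out, 0 to 1, the 0 without si-CPSF3 replicate 2. Called lower were 0 in the main test and 1, ZNF789, with DESeq2, distinct rows summed, library totals, voom, log2(FPKM + 1) or no filter; with 1 library left out, 0 to 1, the 1 without control replicate 2 or si-CPSF3 replicate 1. The ZNF median moved to -0.088 with library totals, -0.070 with log2(FPKM + 0.1) and -0.043 with log2(FPKM + 1), and the share above 0 to 39.8%, 42.1% and 43.1%. Over all genes, 247 calls (80 higher, 167 lower) became 31 (12, 19) and 41 (11, 30) with FPKM pseudocounts of 0.1 and 1, and 547 (232, 315) without the filter; library totals gave 36 higher. With 1 library left out, there were 85 to 199 calls, 30 to 69 higher and 55 to 130 lower. Co-repressor genes called higher were 1 with DESeq2, 2 without the filter and 0 to 1 with 1 library left out. Called lower were 0 with all rows, either FPKM fit or the replicate block, and 0 to 1 with 1 library left out. The cause of these moves was not tested.

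With the replicate block there were 147 calls over all genes (41 higher, 106 lower), and ZNF592 kept its call (adjusted p = 0.0285 by edgeR). Deviations of same-numbered libraries correlated at 0.05, 0.08 and -0.05, so the numbers were not taken as pairs.

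Signs turned only in genes near 0 and in ZNF43 (0.047 with rows summed). ZNF227 became 0.018 with DESeq2, 0.015 with its size factors, 0.0039 without the filter, 0.0021 with the block, 0.00079 with the stricter filter, 0.029 with upper-quartile factors and 0.0011 with MALAT1, mitochondrial and ribosomal protein genes left out. ZNF566 became 0.011 with DESeq2 or its size factors and 0.028 with upper-quartile factors. ZNF462 became -0.070 with library totals, -0.026 with voom and -0.029 with the block. ZNF608 became -0.092 with library totals and -0.0086 and -0.0078 with FPKM pseudocounts of 0.1 and 1. With 1 library left out, ZNF227 ran from -0.37 to 0.42, ZNF462 from -0.26 to 0.20, ZNF566 from -0.19 to 0.13, ZNF608 from -0.10 to 0.21 and ZNF787 from -0.088 to 0.073. CPSF3 lay between 0.36 and 0.91 throughout and never passed. Raw counts near the floor leave standard errors wide.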
